A study of Mus musculus with 6 samples.

Results

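The annexins are a family of proteins that bind negatively charged phospholipids when calcium is present, and they take part in membrane repair, vesicle traffic and the handling of dying cells. *Anxa1* encodes annexin A1, a protein of myeloid cells that is released during inflammation and binds the formyl peptide receptor encoded by *Fpr2*, a G-protein-coupled receptor of leukocytes and microglia. Through this receptor annexin A1 limits the recruitment of neutrophils, and the same receptor is also bound by lipoxin A4 and by serum amyloid A. Described here are 10 genes of this system, 9 annexin genes (*Anxa1*, *Anxa2*, *Anxa3*, *Anxa4*, *Anxa5*, *Anxa6*, *Anxa7*, *Anxa8* and *Anxa11*) and *Fpr2*, out of 46078 Ensembl genes counted in the study. They were taken by symbol from a named list that had been chosen from results of the comparison described here, so their differences between regions are given as a description, without a test.

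RNA-Seq was performed on 3 chronic stroke infarcts and on 3 pieces of equivalent cortex from the opposite hemisphere of wild-type C57BL/6J mice. The labels give an age of 3 months and a time point of 7 weeks, and name no treatment. Per the study's methods, the mice were male, stroke was made by occluding the distal middle cerebral artery and adding hypoxia, and infarcts were cut out by eye. All groups therefore share strain, genotype, age, and surgery. The contralateral cortex is tissue of a brain with a stroke and not of an uninjured mouse. The labels number the libraries within each region but do not say which libraries came from the same mouse, so the spread given here is between libraries.

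Counts on genes totaled between 12146959 and 13427057 in infarcts and between 11943570 and 19933962 in contralateral cortices. Expression is given as TMM-scaled CPM, a count set relative to the depth and composition of its library. Of 15554 genes that passed the filter on low counts, edgeR called 25.7% higher and 20.9% lower in infarcts, where a call needs an adjusted *p* below 0.05 together with more than a 2-fold difference. Marker genes of the labeled tissue were in place in the contralateral cortex, where 6 neuronal markers summed to between 7034 and 8238 CPM. In infarcts the same sum was between 464 and 1207 CPM, and all 6 markers were lower by the edgeR test. Conversely, 6 of 6 macrophage and monocyte markers were higher in infarcts, with sums of 5509 to 9157 CPM compared with 32.9 to 46.4 CPM. In bulk tissue, fewer cells of a type and less RNA per cell cannot be told apart, and the part that these shifts in cell type markers have in the values that follow was not tested.

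All 10 genes passed the filter on low counts. The fitted level was higher in infarcts for each of them, and 7 of the 10 met the call (all but *Anxa6*, *Anxa7* and *Anxa11*), where the share of all tested genes called higher was 25.7%. For 9 of the 10 genes, every infarct library was above every contralateral library, an arrangement found for 37.6% of all tested genes. *Anxa11* was the gene whose regions overlapped. The median log2 fold change was 3.65 over the 10 genes and 0.03 over all tested genes. Since the genes were chosen on this comparison, nothing further is read from these counts. Around the call threshold, a fold change of 2, the smallest difference among the 7 called genes was a log2 fold change of 3.25 (*Anxa8*) and the largest among the other genes was 0.72 (*Anxa6*), with none between.

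**Figure D1:**
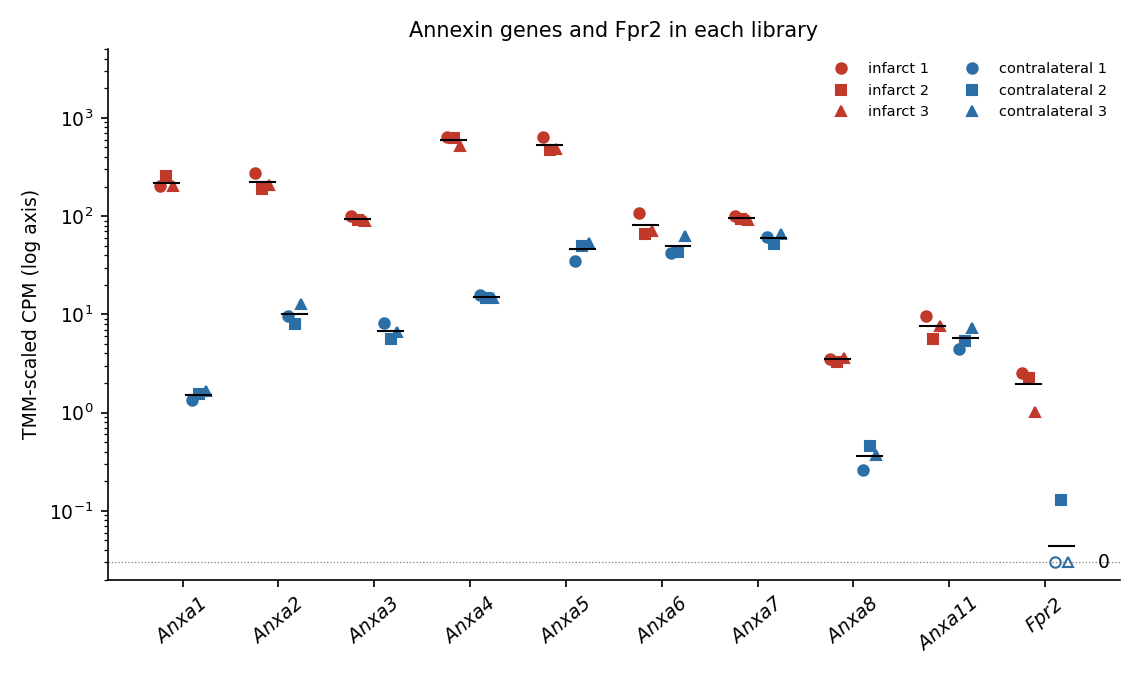
TMM-scaled CPM of the 9 annexin genes and *Fpr2* in each of the 3 infarct libraries (red) and 3 contralateral libraries (blue), on a log axis, with 1 symbol per library number and a black line at the mean of a region. Open symbols on the dotted line mark libraries with 0 counts, and the regions are farthest apart for *Anxa1* (220 and 1.53 CPM on average) and overlap for *Anxa11*.

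Sequences just before the transcription start are shown for 4 of the 10 genes, which are the ligand, the receptor, the annexin whose partner is described below and the annexin with the smallest difference between regions. RefSeq windows on GRCm38.p6 were found for 8 of the 10 genes and not for *Anxa3* and *Anxa6*. Each run holds the 250 bases before the start, 5′ to 3′ on the strand of the gene. Capitals mark matches, on either strand, to the TATA box spelled TATAAA, the CCAAT box, the GC box spelled GGGCGG, the AP-1 site spelled TGANTCA, the ETS and PU.1 core spelled GAGGAA, the glucocorticoid receptor core spelled AGAACA or the STAT site spelled TTCNNNGAA. There were 0 overlaps between matches in the windows of these genes. The windows lie at chr19:20390672-20390921 on the minus strand (*Anxa1*), chr17:17887574-17887823 on the plus strand (*Fpr2*), chr9:69453433-69453682 on the plus strand (*Anxa2*) and chr14:25841905-25842154 on the plus strand (*Anxa11*).
Anxa1: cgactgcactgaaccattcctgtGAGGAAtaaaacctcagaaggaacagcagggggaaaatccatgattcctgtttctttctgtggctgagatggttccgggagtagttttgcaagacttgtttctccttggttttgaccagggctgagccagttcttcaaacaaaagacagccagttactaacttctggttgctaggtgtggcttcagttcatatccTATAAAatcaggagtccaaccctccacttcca
Fpr2: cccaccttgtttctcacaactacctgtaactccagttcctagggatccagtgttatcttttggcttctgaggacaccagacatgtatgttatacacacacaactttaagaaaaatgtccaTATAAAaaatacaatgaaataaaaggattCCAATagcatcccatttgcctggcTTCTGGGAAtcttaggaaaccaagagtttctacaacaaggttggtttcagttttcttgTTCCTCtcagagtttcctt
Anxa2: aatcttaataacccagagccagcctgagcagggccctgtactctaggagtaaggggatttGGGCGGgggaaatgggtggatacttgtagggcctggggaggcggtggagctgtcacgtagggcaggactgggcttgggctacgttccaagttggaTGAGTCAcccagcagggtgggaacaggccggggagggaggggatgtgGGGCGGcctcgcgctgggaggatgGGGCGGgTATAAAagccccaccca
Anxa11: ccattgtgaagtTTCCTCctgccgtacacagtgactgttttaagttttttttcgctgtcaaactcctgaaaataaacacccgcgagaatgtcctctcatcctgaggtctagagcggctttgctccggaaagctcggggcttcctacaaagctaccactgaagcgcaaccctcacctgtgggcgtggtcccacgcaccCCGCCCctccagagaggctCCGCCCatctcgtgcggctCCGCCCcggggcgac

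The window of *Anxa1* held a TATA box that begins 32 bases before the start and 1 ETS and PU.1 core, and 2 CG dinucleotides. That of *Fpr2* held 0 CG dinucleotides, with a TATA box 130 bases, a CCAAT box 101 bases, a STAT site 77 bases and an ETS and PU.1 core 19 bases before the start. *Anxa2* had a TATA box 17 bases before the start, 3 GC boxes and the only AP-1 match among the windows of these genes. *Anxa11* had 3 GC boxes, 1 ETS and PU.1 core, 17 CG dinucleotides and no TATA box. Among 32851 mouse windows of the same length, TATAAA was found in 12.4%, CCAAT in 33.8%, GGGCGG in 32.7%, TGANTCA in 6.75%, GAGGAA in 23.3%, AGAACA in 16.1% and TTCNNNGAA in 7.02%, and the median number of CG dinucleotides was 6. A match describes the letters only, and binding was not measured.

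*Anxa1*, the ligand of the receptor, lies on the minus strand at chr19:20373428-20390944 on GRCm38 (ENSMUSG00000024659). It had 201, 255 and 203 CPM in infarcts 1, 2 and 3, and 1.36, 1.56 and 1.66 CPM in contralateral cortices 1, 2 and 3. All infarcts were thus far above all contralateral cortices, where the gene was close to the low end of what was counted, with 26, 24 and 18 counts. The means were 220 ± 30.3 and 1.53 ± 0.155 CPM (SD, *n* = 3 each), a log2 fold change of 7.17 (SE 0.20), the largest of the 10 genes. With 1 library left out at a time it stayed between 7.07 and 7.25.

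*Fpr2*, the receptor of annexin A1 (chr17:17887824-17893952, plus strand, ENSMUSG00000052270), was counted in small numbers. Infarcts 1, 2 and 3 held 32, 31 and 15 counts, whereas contralateral cortices 1, 2 and 3 held 0, 2 and 0, or 2.55, 2.28 and 1.02 CPM compared with 0, 0.130 and 0 CPM. Infarct 3 held the lowest infarct value, still above all contralateral libraries. With each contralateral library set to 3 counts, the level of *Fpr2* in infarcts was at least 9.30-fold higher. The bound covers counting error only. The fitted log2 fold change of 5.20 (SE 0.84) is no bound, and leaving out single libraries moved it between 4.52 (without contralateral cortex 1) and 7.78 (without contralateral cortex 2). Of the 75-base stretches of the longest protein-coding *Fpr2* transcript, 25.6% are also found in transcripts of *Gm5966* and *Fpr3*, and reads that align to several places were not counted on genes.

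Of 6 other formyl peptide receptor genes, 5 had no counts. *Fpr1*, the receptor for bacterial formylated peptides on phagocytes, was the only 1 of 6 such genes that could be tested. It had 2.07, 1.47 and 1.02 CPM in infarcts and 0.209, 0.326 and 0.185 CPM in contralateral libraries, giving a log2 fold change of 2.60 (SE 0.51, edgeR adjusted *p* = 0.00145). *Fpr3*, *Fpr-rs3*, *Fpr-rs4*, *Fpr-rs6* and *Fpr-rs7*, most of which are known from sensory neurons of the vomeronasal organ, had 0 counts in all 6 libraries, where the detection floor was 3 counts per library. In the infarcts the *Fpr2* and *Fpr1* levels per kb of exon were 1.50 ± 0.628 and 1.15 ± 0.397 CPM per kb, and their ranges overlapped. Both receptors were lowest in infarct 3. So were the marker sums of macrophages and monocytes, neutrophils, lymphocytes and plasma cells, endothelium, and fibroblasts and leptomeninges. The sums of neuronal, astrocyte and oligodendrocyte markers were highest there. Which cells held the receptor transcripts was not tested.

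*Anxa2* encodes annexin A2, a cell-surface protein that pairs with S100A10 to bind plasminogen and its activator (chr9:69453620-69491795, plus strand, ENSMUSG00000032231). It had 275, 189 and 207 CPM in infarcts and 9.66, 7.94 and 12.7 CPM in contralateral cortices. Every infarct was above every contralateral library, with infarct 1 the highest. The means were 224 ± 45.3 and 10.1 ± 2.43 CPM, a log2 fold change of 4.47 (SE 0.24).

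*Anxa4* encodes annexin A4, which binds membranes near the cell surface and is known best from epithelia (chr6:86736840-86793584, minus strand, ENSMUSG00000029994). Its values were 644, 630 and 517 CPM in infarcts and 15.8, 14.8 and 14.7 CPM in contralateral cortices. The contralateral libraries were nearly equal (SD 0.622 CPM around a mean of 15.1 CPM), and the infarct mean was 597 ± 69.8 CPM. The log2 fold change of 5.30 (SE 0.18) was the largest among the annexin genes after that of *Anxa1*.

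*Anxa5* encodes annexin A5, the protein used in the laboratory to detect phosphatidylserine on dying cells (chr3:36448923-36475894, minus strand, ENSMUSG00000027712). It had 635, 470 and 479 CPM in infarcts compared with 35.0, 49.9 and 53.3 CPM in contralateral cortices. Infarct 1 was again highest, and contralateral cortex 1 was lowest. The log2 fold change was 3.52 (SE 0.22), smaller than that of *Anxa4*, although *Anxa5* had the higher contralateral level.

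*Anxa3*, whose protein is found in neutrophil granules and in microglia, had 99.6, 90.7 and 89.6 CPM in infarcts and 8.25, 5.60 and 6.55 CPM in contralateral cortices (chr5:96793339-96845966, plus strand, ENSMUSG00000029484). The 3 infarcts were close together (93.3 ± 5.46 CPM), and the log2 fold change was 3.77 (SE 0.19). *Anxa8*, an annexin gene with little expression in most adult tissues, held 44, 45 and 53 counts in the infarct libraries and 5, 7 and 4 in the contralateral ones (chr14:34085981-34100571, plus strand, ENSMUSG00000021950). That is 3.50, 3.30 and 3.62 CPM compared with 0.261, 0.456 and 0.369 CPM, with a log2 fold change of 3.25 (SE 0.39). The regions did not overlap, and the infarct CV of 4.56% was below the 14.6% that counting error alone would give.

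The remaining annexin genes had fold changes under 2. *Anxa6* encodes the annexin with a doubled core, a protein of late endosomes and the plasma membrane (chr11:54979108-55033445, minus strand, ENSMUSG00000018340). It had 109, 65.3 and 70.8 CPM in infarcts and 41.9, 43.4 and 63.3 CPM in contralateral cortices, so infarct 2 lay just above contralateral cortex 3. The log2 fold change was 0.72 (SE 0.24) and ranged from 0.48 without infarct 1 to 0.93 without contralateral cortex 3.

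*Anxa7*, which encodes an annexin linked to calcium-dependent membrane fusion, had 99.9, 93.0 and 91.2 CPM in infarcts and 61.6, 51.6 and 65.1 CPM in contralateral cortices (chr14:20455260-20480133, minus strand, ENSMUSG00000021814). The regions were apart, with a log2 fold change of 0.67 (SE 0.14). *Anxa11* encodes the annexin that tethers RNA granules to lysosomes (chr14:25842156-25886804, plus strand, ENSMUSG00000021866). Its values were 9.72, 5.65 and 7.58 CPM in infarcts and 4.49, 5.40 and 7.20 CPM in contralateral cortices, and the regions overlapped (log2 fold change 0.43, SE 0.28, and from 0.25 to 0.63 with 1 library left out). For *Anxa11*, 27.1% of the 75-base stretches of its coding transcript also occur in transcripts of *Gm2260*, *Gm2274* and *Anxa11os*. *Gm2260* and *Gm2274* are pseudogenes with 0 counts in all libraries. *Anxa11os*, on the opposite strand over 2.73% of the *Anxa11* exon bases, had 25 counts over all libraries. The strand setting of the counting is not given in the sources used here.

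**Figure D2:**
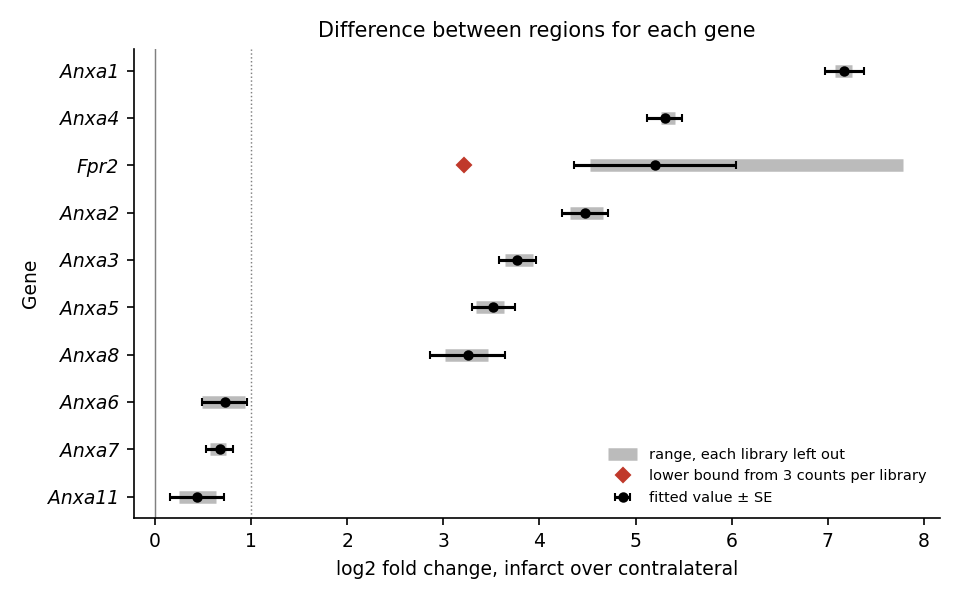
Fitted log2 fold change of infarct over contralateral cortex for each gene, with black points and bars for the value and its SE, grey bars for the range with each of the 6 libraries left out in turn, and a diamond for the lower bound of *Fpr2*. The dotted line marks a fold change of 2; *Anxa6*, *Anxa7* and *Anxa11* lie between 0.43 and 0.72, and the other annexin genes lie at 3.25 or above.

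The sum of the 9 annexin genes was 634 ± 79.5 CPM per kb of summed exon length in infarcts and 62.7 ± 9.71 CPM per kb in contralateral cortices. In contralateral cortices this sum was made mostly of *Anxa5* (41.2% ± 5.08), *Anxa6* (26.8% ± 2.52) and *Anxa7* (16.0% ± 2.57), with 5.29% ± 0.985 from *Anxa4* and 0.842% ± 0.0568 from *Anxa1*. In infarcts *Anxa5* (46.7% ± 2.81), *Anxa4* (20.3% ± 1.85), *Anxa1* (12.1% ± 2.47) and *Anxa2* (9.41% ± 0.919) led, and *Anxa6* and *Anxa7* were down to shares of 4.34% ± 0.731 and 2.51% ± 0.183. The levels of *Anxa6* and *Anxa7* themselves were not lower in infarcts, so their smaller shares go with the higher levels of the other genes. *Anxa1* was rank 8 of the 10 genes by level per kb in contralateral cortices and rank 3 in infarcts.

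The lead of *Anxa5* in infarcts depended on the length used. The summed exons of *Anxa4* cover 4645 bases and its longest protein-coding transcript 2030 bases, while for *Anxa5* these lengths are 1777 and 1731 bases. Per kb of the longest protein-coding transcript, a length chosen after the data were seen, the infarct share was 30.0% ± 2.30 for *Anxa5* and 29.0% ± 2.18 for *Anxa4*, and in infarct 2 *Anxa4* was ahead (31.6% and 27.6%). With either length *Anxa1* took a larger share in infarcts than in contralateral cortices (13.1% ± 2.47 and 1.03% ± 0.0778 per kb of coding transcript), and *Anxa6* a smaller one (3.20% ± 0.591 and 22.1% ± 2.24).

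By level per kb of summed exon, the order in infarcts was *Anxa5*, *Anxa4*, *Anxa1*, *Anxa2*, *Anxa6*, *Anxa3*, *Anxa7*, *Anxa11*, *Anxa8* and *Fpr2*. The libraries of *Anxa1* and *Anxa2*, of *Anxa6* and *Anxa3*, of *Anxa11* and *Anxa8*, and of *Anxa8* and *Fpr2* overlapped, so these neighbors are not separated. In contralateral cortices the order was *Anxa5*, *Anxa6*, *Anxa7*, *Anxa4*, *Anxa2*, *Anxa3*, *Anxa11*, *Anxa1*, *Anxa8* and *Fpr2*, with overlap between *Anxa5* and *Anxa6* and among *Anxa4*, *Anxa2*, *Anxa3* and *Anxa11* from each gene to the next.

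**Figure D3:**
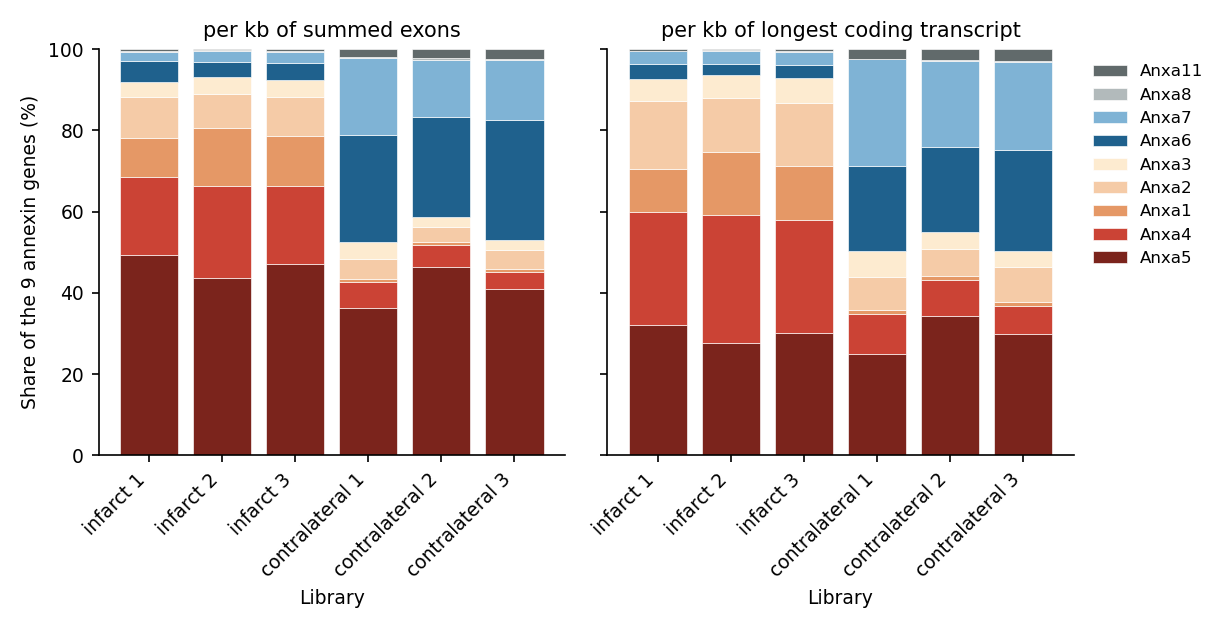
Share of each of the 9 annexin genes in their summed level (%), in each infarct and contralateral library, with levels per kb of summed exons on the left and per kb of the longest protein-coding transcript on the right. *Anxa6* and *Anxa7* (blue) make up a large share in contralateral cortices (26.8% and 16.0% on the left) and a small one in infarcts (4.34% and 2.51%), with either length.

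Infarct 1 held the highest infarct value for 8 of the 10 genes, the exceptions being *Anxa1*, highest in infarct 2, and *Anxa8*, highest in infarct 3. Infarct 1 also had the largest macrophage and monocyte marker sum (9157 CPM, compared with 7826 and 5509 CPM in infarcts 2 and 3), the largest sum of lymphocyte and plasma cell markers (2234, 886 and 288 CPM) and the smallest sum of neuronal markers (464, 617 and 1207 CPM). The neutrophil (12.8, 11.1 and 8.94 CPM) and endothelial (515, 411 and 384 CPM) sums fell in the same order. Choroid plexus and red blood cell sums were also largest in infarct 1, while astrocyte and oligodendrocyte sums were largest in infarct 3. Contralateral cortex 3 held the highest contralateral value for 6 genes. Fibroblast and leptomeningeal markers, of which 6 of 6 were higher in infarcts, did not follow the same order, with 8060, 8680 and 6927 CPM in infarcts 1, 2 and 3. Of 6 microglial markers, 4 were higher in infarcts, and their sums of 1201 to 1364 CPM, compared with 345 to 430 CPM in contralateral cortices, were also highest in infarct 1. Over 6 neutrophil markers, a cell type known for *Anxa1*, *Anxa3* and *Fpr2*, the sums were 8.94 to 12.8 CPM in infarcts and 0.104 to 0.646 CPM in contralateral cortices. Of the 6 neutrophil markers, 2 (*S100a8* and *S100a9*) could be tested and 2 were called higher, where 25.7% of all tested genes were. *S100a8* made up most of the infarct sum. *Ly6g*, *Mpo* and *Retnlg* were at 0 in all contralateral libraries. In infarcts 1, 2 and 3, *Ly6g* had 0, 2 and 0 counts, *Mpo* 4, 1 and 10, and *Retnlg* 1, 7 and 11.

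S100 proteins are small calcium-binding partners that hold pairs of annexins together. Of 4 such genes, 3 could be tested and all 3 were called higher (25.7% of all tested genes were). *S100a4*, not tested, had 8, 10 and 5 counts in infarcts 1, 2 and 3 and 0 in every contralateral library. *Gm42674*, on the same strand, covers 51.7% of the *S100a4* exon bases, and reads on several genes were not counted. *S100a10*, the partner of annexin A2, had 26.0, 24.0 and 28.7 CPM in infarcts and 12.6, 7.81 and 10.2 CPM in contralateral libraries, giving a log2 fold change of 1.36 (SE 0.21, edgeR adjusted *p* = 0.000278). *S100a11*, the partner of annexin A1, differed by 4.35 (SE 0.35, adjusted *p* = 4.31e-06), and *S100a6* by 3.98 (SE 0.16, adjusted *p* = 1.64e-07).

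The annexin and its partner did not keep their ratio. Per kb of exon, *Anxa2* over *S100a10* was 3.43, 2.56 and 2.35 in infarcts and 0.249, 0.330 and 0.404 in contralateral cortices, so *S100a10* was the more abundant transcript in all contralateral libraries and *Anxa2* in all infarcts. *Anxa1* over *S100a11* was 3.66, 4.87 and 3.35 in infarcts and 0.380, 0.527 and 1.58 in contralateral cortices. This second ratio rests on 12, 8 and 2 contralateral *S100a11* counts, and 37.8% of the 75-base stretches of *S100a11* occur in pseudogenes. The gap between regions in the *Anxa2* ratio was also seen per kb of coding transcript (4.05 ± 0.837 and 0.478 ± 0.113).

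**Figure D4:**
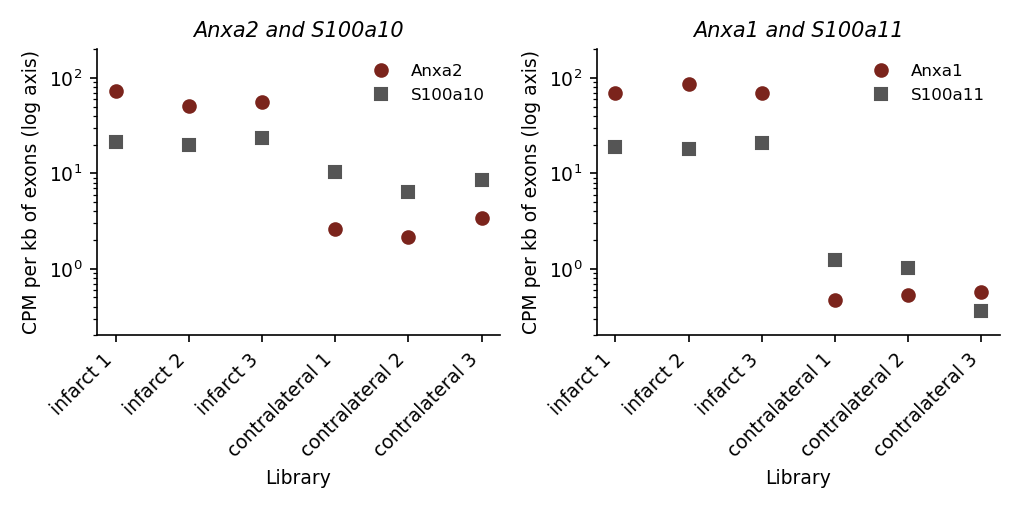
Level in CPM per kb of summed exons (log axis) of *Anxa2* and *S100a10* (left) and of *Anxa1* and *S100a11* (right) in each infarct and contralateral library. The circle of *Anxa2* lies above the square of *S100a10* in all 3 infarcts and below it in all 3 contralateral libraries.

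Among other annexin genes, *Anxa9*, which encodes an annexin with altered calcium-binding sites, had 8.68, 10.2 and 8.53 CPM in infarcts and 1.83, 1.24 and 1.20 CPM in the contralateral libraries. The fitted log2 fold change was 2.65 (SE 0.27, edgeR adjusted *p* = 2.03e-05). *Anxa10* and *Anxa13*, genes of stomach and gut, were not tested, with at most 2 counts in any library.

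The plasminogen system, which annexin A2 gathers at the cell surface, was higher in infarcts in every gene that could be tested (5 of 5, with *Serpinb2* too low), where 25.7% of all tested genes were called higher. The urokinase receptor gene *Plaur* had 9.88, 8.00 and 8.53 CPM in infarcts and 0.261, 0.130 and 0.185 CPM in contralateral libraries, giving a log2 fold change of 5.42 (SE 0.35, adjusted *p* = 1.18e-06). Urokinase (*Plau*) differed by 4.96 (SE 0.30, adjusted *p* = 1.06e-06).

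Other precursors of *Fpr2* agonists were mostly too low to test (3 of 5). The 2 tested genes were called higher, where 25.7% of all tested genes were. Without a filter on low counts 4 were called higher in place of 2. That fit covers a different set of genes, so the 25.7% is no background for the count of 4. *Saa3*, a serum amyloid A gene of macrophages, had 4.30, 2.64 and 2.46 CPM in infarcts and 0 counts in all contralateral libraries, and its level in infarcts was at least 14.9-fold higher (adjusted *p* = 7.85e-05). *Hebp1*, the source of the peptide F2L, had 9.80, 9.84 and 8.12 CPM compared with 2.46, 2.60 and 2.40 CPM, a log2 fold change of 1.89 (SE 0.23, adjusted *p* = 5.70e-05). *Camp*, which encodes the cathelicidin peptide, *Saa1* and *Saa2* were each under 1 CPM in all libraries.

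Of 10 genes for membrane repair and calcium-dependent binding partners, 5 were called higher, 0 lower and 5 were not called, with a median log2 fold change of 1.19, where 25.7% of all tested genes were called higher and 20.9% lower. *Myof* (myoferlin) was at 462, 347 and 276 CPM in infarcts and 6.95, 7.10 and 7.84 CPM in contralateral libraries, giving a log2 fold change of 5.63 (SE 0.24, adjusted *p* = 1.64e-07). *Ahnak*, a giant scaffold that binds annexin A2 with S100A10, differed by 3.29 (SE 0.19, adjusted *p* = 6.14e-07), and *Dysf* (dysferlin) by 1.84 (SE 0.21, adjusted *p* = 4.31e-05). The 5 that were not called were *Pdcd6* (0.50), *Pdcd6ip* (0.91), *Sri* (0.94), *Chmp4b* (0.05) and *Trim72* (-1.24). Without infarct 2, *Trim72* was called lower (-2.19) and *Sri* higher (1.08), and without infarct 3 *Pdcd6ip* was called higher (1.03). *Pdcd6* and *Sri* encode known partners of annexin A7 and annexin A11.

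Phosphatidylserine, the lipid that annexin A5 binds, is kept on the inner face of the membrane by flippases and moved to the outer face by scramblases. Of 11 such genes, 7 were called higher and 4 were called lower, beside 25.7% and 20.9% of all tested genes. *Plscr1* (log2 fold change 3.86, SE 0.26, adjusted *p* = 1.44e-06), *Plscr4* (3.09, SE 0.16, adjusted *p* = 4.00e-07) and the scramblase *Ano6* (2.76, SE 0.18, adjusted *p* = 1.14e-06) differed most among those higher in infarcts. Lower in infarcts were *Xkr4* (-3.13, SE 0.53, adjusted *p* = 0.00163), *Atp8a2* (-2.88, SE 0.22, adjusted *p* = 2.91e-06), *Atp8a1* (-1.10, SE 0.15, adjusted *p* = 0.000121) and *Tmem30a* (-1.07, SE 0.16, adjusted *p* = 0.000238). *Atp8a1* and *Atp8a2* encode flippases known from neurons and *Tmem30a* their shared subunit, and the neuronal marker sum moved the same way. The flippase *Atp11a*, in contrast, was among the 7 called higher (1.78). Scaled by library totals, *Atp8a1* (-0.89) and *Tmem30a* (-0.87) were no longer called. Infarct 3 held the highest infarct value of *Xkr4* (17.1 CPM, compared with 6.85 and 3.38 CPM in infarcts 1 and 2), and without it the log2 fold change was -3.96. The scramblase gene *Xkr8* (1.04, adjusted *p* = 0.0107) lost its call without infarct 1 (0.84), contralateral cortex 1 (0.86) or contralateral cortex 3 (0.99).

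**Figure D5:**
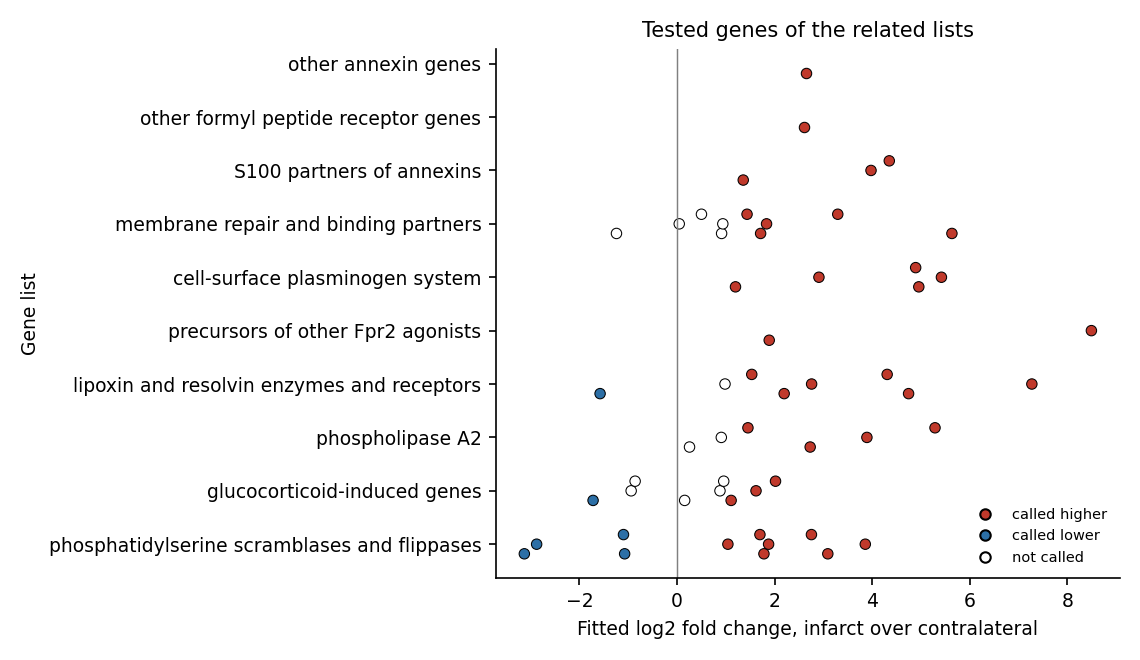
Fitted log2 fold change of infarct over contralateral cortex for the 56 tested genes of 10 related lists, 1 point per gene, filled red where called higher, blue where called lower and white where not called. All 11 scramblase and flippase genes were called, 7 to the right of 0 and 4 to the left, and the values beyond 7 (*Saa3* and *Gpr18*) were fitted against contralateral libraries with at most 1 count.

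To find the genes with the most similar pattern, the log2 level of each gene, with 0.5 CPM added, was centered on its mean over the 6 libraries and the root mean square difference was taken. Among 15539 other genes, *Siglec1* (0.18), a macrophage sialic acid receptor, *Gpr65* (0.22) and *Igha* (0.22) were nearest to *Anxa1*. *Igha* had 0 CPM in all contralateral libraries and *Gpr65* had 0.104, 0.0651 and 0.277 CPM, so the distances of *Igha* and *Gpr65* depend on the added 0.5 CPM. The fitted log2 fold change of *Gpr65* was 8.77, compared with 7.17 for *Anxa1*. Nearest to *Anxa2* were *Serpinh1* (0.09), the collagen chaperone, *Mrc2* (0.10), a collagen receptor, and *C1qc* (0.12), a complement component. Nearest to *Anxa5* were *Esyt1* (0.11), *Tmem71* (0.12) and *Ctsb* (0.12), the lysosomal protease. For *Fpr2* they were *5830416I19Rik* (0.10), *Zfp953* (0.11) and *Phex* (0.11), which at these low counts says little. Among the genes described, the nearest was *Anxa4* to *Anxa1* (0.77), *Anxa3* to *Anxa2* (0.43) and to *Anxa5* (0.35), and *Anxa8* to *Fpr2* (0.35). The genes named above had the smallest of 15539 distances, and the genes described are few. That they lie nearer than any gene described therefore carries no information. The distances also include the difference between regions, on which the genes described were chosen. These distances describe 6 libraries in 2 regions and carry no test.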

How the data were processed

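RNA-Seq of 3 infarct and 3 contralateral libraries was analyzed. Per the submitters' processing notes and the paper's methods, the authors made stranded mRNA libraries, used bcl2fastq 2.19, Trimmomatic 0.32 and STAR 2.5.2b on GRCm38, and deposited raw htseq-count counts per Ensembl gene without normalization. The annotation and strand setting of the counting are not given in the sources used here. The 5 entries per library that name no gene (reads on no gene, on several genes or aligned to several places, together 26.6% to 34.3% of tallied reads) were left out.

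Of 46078 identifiers, 45229 were found in GENCODE M21, which gave symbols, positions and lengths. Counts were fitted in R 4.3.3 with edgeR 4.0.16 (TMM, filterByExpr by region, robust glmQLFit and glmQLFTest) over 15554 genes, with Benjamini-Hochberg adjustment over all of them. A call needed an adjusted *p* below 0.05 together with more than a 2-fold difference. Levels per kb divide CPM by exon length. Sharing between genes was measured on 75-base stretches of transcripts. Promoter windows come from RefSeq (GRCm38.p6). Tables and figures were made with Python 3.11.15, pandas 2.3.3, NumPy 2.4.6 and matplotlib 3.10.9. The procedure was tested on simulated data.

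The members and the related gene lists were chosen with earlier results of these data known. All members are named in the text, and from each related list up to 3 called genes per direction with the largest log2 fold change, together with the genes not called or not tested where there were few. Further listed genes are named where a count turns on them, and some listed genes are not reported here by name. Alternatives were DESeq2 1.42.0, RLE or total-count scaling, other filters, no fold change threshold, a replicate block, other lengths and each library left out. The labels do not say that libraries came from separate mice, so adjusted *p* values measure the spread between these libraries. Floors of 3 counts cover counting error only.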

Additional observations from a re-analysis of the deposited data

How the results depend on the processing

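Of 118 log2 fold changes of the 10 genes under the alternatives, 109 stayed within the spread between libraries, 9 moved beyond it and 0 reversed. The number of these genes called was 7 under each alternative that leaves out a library or changes the scaling, with DESeq2 and with a replicate block, 9 with no fold change threshold and 5 with a filter of 10 counts in every library. Scaling by library totals raised the median difference over all genes by 0.20 on the log2 scale, and RLE factors moved it by -0.01. DESeq2 called 4434 genes higher and 3550 lower, and 40 and 6 of the related list genes, compared with 37 and 6 in edgeR. With the filter of 10 counts, *Anxa8* and *Fpr2* could not be fitted. The labels do not say whether same-numbered libraries came from the same mouse, so they were treated as unpaired. The deviations of same-numbered libraries correlated at -0.21, 0.11 and 0.02, and infarct 1 correlated better with contralateral cortex 3 than with its own number. These deviations are taken from means of only 3 libraries per region, so the correlations cannot show whether libraries are paired. With a replicate block 3945 genes were called higher and 3222 lower, and 7 of the 10 genes and 37 and 6 of the related genes, so it changed no count of calls by more than 1.5 times. The log2 fold change of *Chmp4b* reversed without contralateral cortex 1 (-0.0174) or 2 (-0.0062), and reached 0.145 without infarct 2. The share of *Anxa5* was 34.1% in infarcts and 31.4% in contralateral cortices per kb of the longest transcript, and 30.0% and 29.8% per kb of the longest protein-coding transcript, a length added after the data were seen. For *Anxa4* these shares were 25.6% and 6.91%, and 29.0% and 8.47%. These differences follow from the lengths that the levels were divided by. Depth limits *Fpr2*, *Anxa8* and contralateral *Anxa1*, each with 26 counts or fewer in every contralateral library.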

Other observations

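Listed enzymes and receptors of lipoxins and resolvins, lipid mediators that share *Fpr2* or act beside it, were mostly higher in infarcts. Of 8 tested genes, 6 were called higher, 1 lower and 1 was not called, where 25.7% and 20.9% of all tested genes were called higher and lower. The list also holds genes named for leukotrienes, *Lta4h* and *Ltb4r1* (log2 fold change 2.76, among the 6 called higher). The count therefore does not cover lipoxins and resolvins alone. *Alox5ap*, which presents arachidonic acid to 5-lipoxygenase, had 7.25, 5.58 and 7.17 CPM in infarcts and 0.313, 0.195 and 0.185 CPM in contralateral libraries, giving a log2 fold change of 4.75 (SE 0.37, edgeR adjusted *p* = 3.69e-06). *Cmklr1*, a chemerin and resolvin receptor, differed by 4.31 (SE 0.20, adjusted *p* = 2.18e-07). *Gpr18* had 8.68, 1.91 and 3.62 CPM in infarcts and was at least 22.6-fold higher (adjusted *p* = 0.000146), and infarct 1 held the highest value, without which the bound was 13.2-fold. *Lgr6*, a maresin receptor, was lower in all 3 infarcts (5.66, 5.65 and 5.39 CPM compared with 12.3, 18.5 and 19.2 CPM), a log2 fold change of -1.58 (SE 0.22, adjusted *p* = 0.000176). *Lta4h* (0.98) was just under the fold change needed for a call, and it was called with library totals, without a filter on low counts, with a minimum of 10 counts in every library (1.02), without a fold change threshold, and without contralateral cortex 3 (1.05), infarct 2 (1.05) or infarct 3 (1.09). *Alox15* had 4, 33 and 22 counts in infarcts 1, 2 and 3 and 0 in all contralateral libraries. It did not pass the filter on low counts and was not tested. *Alox5* itself (1.53, adjusted *p* = 0.0228) was no longer called in 4 of the 6 fits with 1 library left out, where the adjusted *p* was 0.0738 without contralateral cortex 2, 0.0786 without contralateral cortex 3, 0.0719 without infarct 1 and 0.0555 without infarct 2.

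Some phospholipase A2 enzymes release arachidonic acid from membranes, and annexin A1 was first known as an inhibitor of phospholipase A2. Of 6 genes listed under this enzyme name, 4 were called higher in infarcts and 2 were not called, where 25.7% of all tested genes were called higher. The 4 include *Pla2g7* (log2 fold change 1.45). The count therefore does not cover release of arachidonic acid alone. *Pla2g2d*, a secreted form known from dendritic cells and macrophages, had 18.3, 7.42 and 5.94 CPM in infarcts and 0.313, 0.326 and 0.0923 CPM in contralateral cortices (log2 fold change 5.29, SE 0.60, edgeR adjusted *p* = 6.25e-05), *Pla2g4a*, the cytosolic form, differed by 3.89 (SE 0.26, adjusted *p* = 1.25e-06) and the lysosomal *Pla2g15* by 2.73 (SE 0.17, adjusted *p* = 8.70e-07). Without infarct 1 the log2 fold change of *Pla2g2d* was 4.65. *Pla2g6* (0.26) and *Pla2g5* (0.91) were not called, but *Pla2g5* was called without infarct 2 (1.09) and with library totals (1.11).

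Glucocorticoids are known to raise *Anxa1*. Of 9 genes listed as glucocorticoid-induced, 3 were called higher, 1 lower and 5 were not called, with a median log2 fold change of 0.88, where 25.7% and 20.9% of all tested genes were called higher and lower, so the share called higher was near that background. *Mt2* (2.02, SE 0.34, adjusted *p* = 0.000704), *Sgk1* (1.62, SE 0.17, adjusted *p* = 2.82e-05) and *Mt1* (1.11, SE 0.27, adjusted *p* = 0.00529) were higher, and *Zbtb16* (-1.72, SE 0.43, adjusted *p* = 0.0090) was lower by the edgeR test. *Mt1* was not called without infarct 3, where its log2 fold change was 0.73. The best known reporters of the group, *Fkbp5* (0.96, adjusted *p* = 0.000364), *Tsc22d3* (0.88, adjusted *p* = 0.000742) and *Per1* (-0.86, adjusted *p* = 0.00289), did not pass a fold change of 2 in the fit reported. By the edgeR test they missed the call on fold change alone, and their regions did not overlap. *Fkbp5* was called without contralateral cortex 3 (1.02), without infarct 2 (1.02) and with library totals (1.16), and *Tsc22d3* with library totals (1.08), so that 5 genes of the list were called higher with library totals. *Dusp1* (-0.94) was called lower without contralateral cortex 1 (-1.23) or infarct 1 (-1.05). The receptor gene *Nr3c1*, which is counted among the 9 listed genes, had overlapping regions (0.16). *Zbtb16* had 5.42, 6.90 and 18.2 CPM in infarcts and 30.1, 39.7 and 31.1 CPM in contralateral libraries. Leaving out infarct 3 gave it a log2 fold change of -2.43. Without a filter on low counts its adjusted *p* was 0.0617.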
